A study of Mus musculus with 28 samples.

Results

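The IL-7 receptor and JAK-STAT5 axis was taken as 8 genes, Il7r, Il2rg, Jak1, Jak3, Stat5a, Stat5b, Socs2 and Cish, of the 55450 genes in the RNA-seq table. They were chosen by symbol for their known place in the pathway. No value entered the rule, though earlier results of these data were known. Each symbol matched 1 row. All 8 had a mean TPM (the share of a library's transcripts, a level that is corrected for transcript length) of at least 0.1 over the 12 libraries, as did 16415 genes in all. The contacts of the promoter fragment of Il7r in Promoter Capture Hi-C (PCHi-C) were added. The cells were C10, a line of mouse Pre-B cells with the C/EBPαER transgene, in which rat C/EBPα is fused to the hormone binding part of the estrogen receptor. RNA-seq covered 3 libraries of uninduced cells (0h) and 3 each for cells induced for 1h, 12h or 48h, for which the medium received β-estradiol (100 nM), IL-3 (10 nM) and CSF-1, and PCHi-C covered the same 4 time points with 2 replicates merged into 1 list each. All libraries came from this 1 cell line, and the 0h cells carried the transgene too. IL-3 and CSF-1 were added together with β-estradiol, so their effects and that of C/EBPα cannot be told apart.

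IL-7 binds a receptor built of the IL-7 receptor α chain, encoded by Il7r, and the common γ chain, encoded by Il2rg. The kinases JAK1 and JAK3 sit on these chains and phosphorylate STAT5A and STAT5B, which then enter the nucleus and switch on target genes, among them Cish and Socs2, whose products damp the signal. This pathway supports the growth and survival of mouse Pre-B cells, while the receptors for IL-3 and GM-CSF, used by myeloid cells, reach STAT5 through JAK2.

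TPM carry no record of depth, and a ribosomal RNA locus alone took 70.3% to 82.9% of them in every library. Levels below are TPM as deposited, and fold changes are on the log2 scale of TPM divided by a size factor per library plus 0.1, with 0h as the reference unless another time is named. In time order (0h, 1h, 12h, 48h) the mean size factors were 0.906, 1.43, 1.15 and 0.681. The 1h, 12h and 48h comparisons had median log2 changes over all genes tested of 0.02, 0.07 and 0.07 on this scale, and of 0.59, 0.34 and -0.18 on TPM as deposited. With the scaling, 888 genes were called higher and 807 lower at 1h, 2626 and 2375 at 12h, and 4021 and 3615 at 48h. On TPM as deposited these counts were 3955 and 231, 3662 and 1283, and 2611 and 4466. Between consecutive times, 1845 were higher and 1438 lower at 12h than at 1h (1145 and 2468 as deposited), and 1725 higher and 1952 lower at 48h than at 12h (673 and 5205 as deposited). The summed TPM of 7 Pre-B cell markers (Cd79a, Cd79b, Ebf1, Igll1, Pax5, Rag1 and Vpreb1) ranged over 195 to 228 in the 0h libraries, 131 to 148 in the 1h, 52.0 to 68.7 in the 12h and 23.6 to 34.0 in the 48h libraries, with Rag1 listed at 0 at 48h. That of 6 macrophage markers (Adgre1, Cd14, Csf1r, Fcgr1, Itgam and Lyz2) ranged from 1.58 to 2.07, 4.67 to 6.26, 226 to 324 and 173 to 242, with Cd14 listed at 0 at 0h. Adgre1 was listed at 0 at 0h and 1h and stayed at or under 0.29 TPM later. Lyz2 made up the largest part at 12h and 48h, with means of 207 and 109 TPM. The Pre-B markers did not all fall at each step, since Cd79b had means of 34.4, 5.10, 13.1 and 12.0 TPM in time order. At every time replicate 3 had the lowest share of the ribosomal RNA locus and the most genes above 0. The deviations of its libraries from the time point means correlated at 0.081 to 0.255 in their 6 pairs, so these libraries deviated together. They correlated below 0 in all 24 pairs with libraries of another number. The 3 deviations of a gene at a time point sum to 0, so these negative values follow in part from the positive ones. The 3 T cell, 3 fibroblast and 2 erythroid markers were listed at 0 in every library, and the 2 NK cell markers summed to at most 0.11. In these bulk libraries, fewer cells of a type and less RNA per cell cannot be told apart.

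Il7r fell first and furthest among the 8 genes. Il7r (ENSMUSG00000003882; GRCm38 chr15:9505788-9530176, minus strand) encodes the α chain that binds IL-7. It is shown here with the RefSeq sequence of the 250 bases before its start, since Il7r is the member that was already lower at 1h and its window holds matches to both a STAT and a C/EBP motif. Capitals mark TTGCTCAA, a match to the C/EBP motif TTGCNNAA, and TTCAGGGAA, a match to the STAT motif TTCNNNGAA, which do not overlap.
Il7r, chr15:9529877-9530126, minus strand: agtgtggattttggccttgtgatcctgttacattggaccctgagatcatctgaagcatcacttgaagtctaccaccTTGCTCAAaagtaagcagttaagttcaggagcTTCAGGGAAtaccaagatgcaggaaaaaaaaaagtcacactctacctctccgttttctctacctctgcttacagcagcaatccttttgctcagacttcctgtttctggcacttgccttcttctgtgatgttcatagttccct

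The matches lie at chr15:9530043-9530050 and chr15:9530010-9530018. Of 32851 RefSeq promoters of 250 bases before and 50 after the start, searched on both strands, 10.8% held the C/EBP letters and 8.3% the STAT letters. The letters GAGGAAGT, a form of the ETS motif that PU.1 reads, were held by 3.2% and by none of the members' promoters found. The Il7r sequence shown does hold AGGAAGT, these letters without the first, on the other strand (acttcct). Promoter sequences were found for 7 of the 8 genes, and beyond Il7r and Cish no member had a match to any of the 3 motifs in this window.

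The 3 uninduced libraries held Il7r at 8.13, 7.32 and 7.0 TPM. At 1h the libraries held 1.33, 1.46 and 0.37 TPM, and replicate 3 was the lowest of them. At 12h they held 0.03, 0 and 0 TPM, and at 48h 0.74, 0.67 and 0.93 TPM. Every induced library was below every uninduced library, the 12h libraries were the lowest, and the 48h libraries were above the 12h libraries. The log2 fold change was -3.50 at 1h (SE 0.35, adjusted p = 0.000106 in limma), -6.27 at 12h (SE 0.35, adjusted p = 3.35e-07) and -2.76 at 48h (SE 0.35, adjusted p = 5.94e-05). The change at 12h was among the lowest of the 16415 genes, at rank 3, and its size depends on the 0.1 added, since it was -3.20 with 1 added and -9.04 with 0.01. From 1h to 12h Il7r fell by 2.77 on the log2 scale (adjusted p = 0.000207 in limma), and from 12h to 48h it rose by 3.51 (adjusted p = 3.21e-05 in limma). The size of both depends on the 0.1 added as well, since the 12h libraries were near 0. Over all alternatives the log2 changes ranged from -5.34 to -0.74 and from 1.09 to 6.19, and every one passed the test. The return was partial: the mean at 48h was 0.780 TPM against 7.48 ± 0.58 TPM (SD, n = 3) at 0h.

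**Figure D1:**
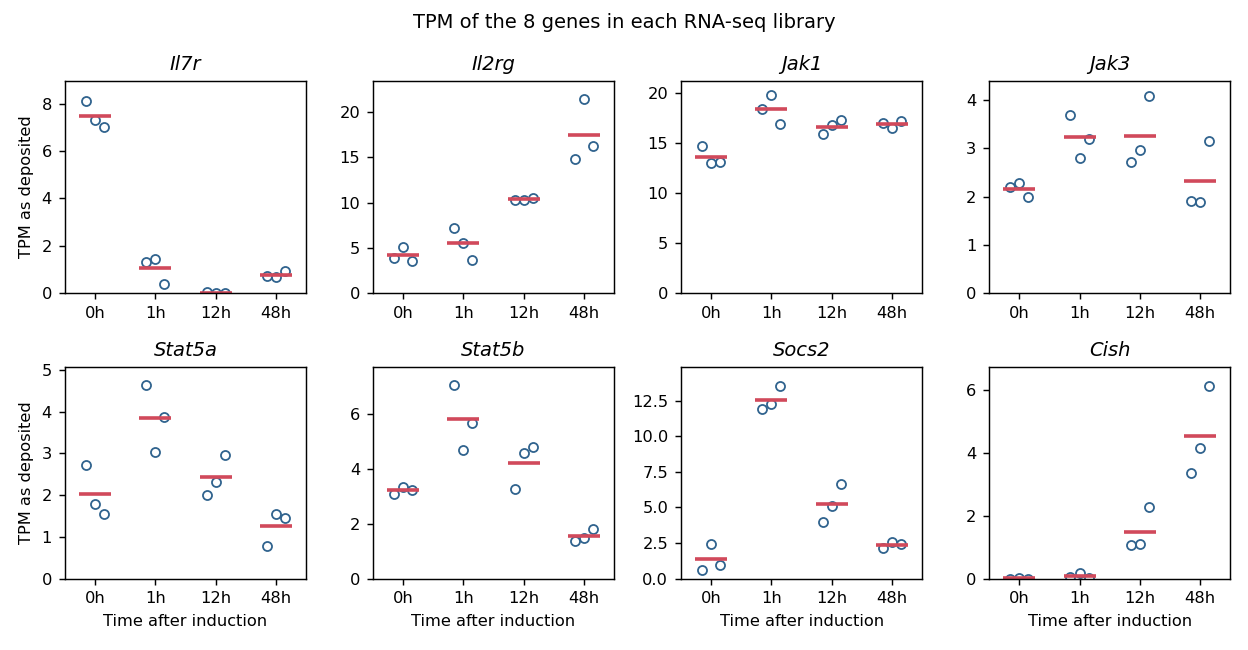
TPM as deposited (y axes, each starting at 0) of the 8 genes at 0h, 1h, 12h and 48h (x axes), with a circle for each of the 3 libraries and a bar at their mean. Il7r drops from between 7.0 and 8.13 TPM at 0h to between 0 and 0.03 TPM at 12h, Socs2 peaks at 1h with 11.92 to 13.52 TPM, and Il2rg and Cish are highest at 48h.

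Il2rg, which encodes the γ chain shared with the receptors for IL-2, IL-4, IL-9, IL-15 and IL-21, moved the other way. Its libraries held 3.83, 5.07 and 3.57 TPM at 0h, 7.22, 5.51 and 3.71 TPM at 1h, 10.26, 10.3 and 10.49 TPM at 12h, and 14.8, 21.4 and 16.2 TPM at 48h. The 0h and 1h libraries overlapped, while each 12h library was above both and each 48h library above those of 12h. The log2 fold change was -0.29 at 1h (SE 0.21, adjusted p = 0.44 in limma), which was 0.36 on TPM as deposited (adjusted p = 0.298), so neither direction passed the test. It was 0.98 at 12h (SE 0.21, adjusted p = 0.00496) and 2.46 at 48h (SE 0.21, adjusted p = 2.98e-06). Il2rg rose by 1.27 from 1h to 12h (adjusted p = 0.00149 in limma) and by 1.48 from 12h to 48h (adjusted p = 0.000495 in limma). At 0h the α chain was above the γ chain in every library, and from 1h on it was below it.

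Of the kinase genes, Jak1 was called higher at 48h and Jak3 at no time, with the scaling. Jak1, whose product binds the α chain, held 14.66, 12.94 and 13.04 TPM at 0h, 18.41, 19.81 and 16.87 TPM at 1h, 15.84, 16.74 and 17.29 TPM at 12h, and 16.98, 16.43 and 17.17 TPM at 48h. As deposited, all induced libraries were above the uninduced ones, by at most 0.44 in log2 mean change. With the scaling the change was -0.22 at 1h (adjusted p = 0.273 in limma), -0.04 at 12h (adjusted p = 0.841) and 0.73 at 48h (SE 0.12, adjusted p = 0.000406). On TPM as deposited it was 0.44 at 1h (adjusted p = 0.0316 in limma), 0.29 at 12h (adjusted p = 0.113) and 0.32 at 48h (adjusted p = 0.0718). The direction at 1h and at 12h and the calls at 1h and at 48h therefore rested on the scaling. Jak1 was 0.77 higher at 48h than at 12h (adjusted p = 0.000793 in limma), against 0.02 (adjusted p = 0.938) as deposited.

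Jak3, whose product binds the γ chain, held 2.21, 2.29 and 1.99 TPM at 0h, 3.69, 2.81 and 3.2 TPM at 1h, 2.72, 2.97 and 4.08 TPM at 12h, and 1.92, 1.89 and 3.16 TPM at 48h. The 48h libraries spread over those of the other times. Its log2 fold changes for 1h, 12h and 48h were -0.09, 0.22 and 0.46, with adjusted p of 0.842, 0.421 and 0.0731 in limma, and the 95% interval at 48h ran from 0.03 to 0.88. Without 48h replicate 2 the value at 48h was 0.60 (adjusted p = 0.0312 in limma), and on TPM as deposited it was 0.06 (adjusted p = 0.876).

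The STAT5 genes, a pair of close paralogs side by side on chromosome 11, were lowest at 48h in TPM. Stat5a held 2.73, 1.78 and 1.55 TPM at 0h, 4.64, 3.04 and 3.87 TPM at 1h, 2.01, 2.31 and 2.96 TPM at 12h, and 0.79, 1.55 and 1.46 TPM at 48h. Its highest 48h library equalled its lowest 0h library, and no change from 0h passed the test, with log2 values for 1h, 12h and 48h of 0.28, -0.05 and -0.26 (adjusted p = 0.524, 0.921 and 0.402 in limma). Stat5b held 3.09, 3.35 and 3.25 TPM at 0h, 7.09, 4.69 and 5.69 TPM at 1h, 3.26, 4.59 and 4.82 TPM at 12h, and 1.39, 1.5 and 1.82 TPM at 48h. Its 48h libraries were below those of every other time. Stat5b fell by 0.62 on the log2 scale at 48h (SE 0.19, adjusted p = 0.0191 in limma) and by 0.64 from 12h to 48h (adjusted p = 0.0302 in limma). The first of these calls was lost without 0h replicate 2 (adjusted p = 0.0554 in limma), 0h replicate 3 (0.0642) or 48h replicate 2 (0.0549), and the second without 12h replicate 2 or 3 or 48h replicate 1 or 2 (0.0695 to 0.105), all with the sign kept. With no replicate 3 library, an alternative chosen after seeing the data, both calls were lost (-0.60 and -0.70, adjusted p = 0.122 and 0.132 in limma). On TPM as deposited Stat5b was -1.0 at 48h (adjusted p = 0.00233 in limma). At 1h both genes were higher as deposited, Stat5a by 0.92 (adjusted p = 0.0444 in limma) and Stat5b by 0.81 (adjusted p = 0.0179), and not with the scaling.

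Reads from stretches that Stat5a and Stat5b share can be counted for either. Of the 100-base windows of their GENCODE transcripts, the length of the reads, 3.44% of those of Stat5a and 4.79% of those of Stat5b were identical in the other gene. The sum of both genes was therefore compared as well. In time order it was 5.25 ± 0.52, 9.67 ± 2.0, 6.65 ± 1.27 and 2.84 ± 0.58 TPM (SD, n = 3 each). After scaling, the log2 differences in the sum from 0h to 1h, 12h and 48h were 0.20, -0.01 and -0.49, with two-sided exact permutation p of 0.4, 1 and 0.1. With 3 libraries against 3, 0.1 is the smallest p this test allows, so no sum could pass 0.05. In the same order Stat5a made up 38.0% ± 7.8, 39.8% ± 0.61, 36.6% ± 2.7 and 43.9% ± 7.3 of the sum (SD, n = 3 each), differences within the spread between replicates at 0h and 48h.

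Both STAT5 target genes that feed back on the pathway rose, at different times. Socs2, a suppressor of cytokine signalling that acts on growth hormone and other STAT5-coupled receptors, rose first of the pair. It held 0.6, 2.47 and 0.99 TPM at 0h, 11.92, 12.26 and 13.52 TPM at 1h, 3.99, 5.09 and 6.68 TPM at 12h, and 2.13, 2.57 and 2.45 TPM at 48h. The 1h libraries were above all others, the 12h libraries came next, and 0h replicate 2 lay within the range of the 48h libraries. The log2 fold change was 2.69 at 1h (SE 0.39, adjusted p = 0.00132 in limma), 1.74 at 12h (SE 0.39, adjusted p = 0.00584) and 1.39 at 48h (SE 0.39, adjusted p = 0.0122). The value at 48h was 0.90 without 0h replicate 1 and 1.91 without 0h replicate 2. The earlier values moved by a similar amount when single libraries were left out. The 1h value then fell as low as 2.20 or reached 3.22, while the 12h value had extremes of 1.25 and 2.27. Fitted with only the 6 libraries compared, the calls at 12h and 48h were lost (adjusted p = 0.0619 and 0.0963 in limma), and on TPM as deposited that at 48h was lost (0.98, adjusted p = 0.0563). With no replicate 3 library, the values at 1h, 12h and 48h were 2.53, 1.62 and 1.38, and no call was kept (adjusted p = 0.0868, 0.133 and 0.144 in limma). The difference of -0.95 between 12h and 1h did not pass (adjusted p = 0.118 in limma), but did as deposited (adjusted p = 0.0336), with 1 added in place of 0.1 (adjusted p = 0.0397) and with only the 6 libraries (adjusted p = 0.0119).

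Cish, the cytokine inducible SH2 protein that binds activated receptors, was first called at 12h and had the largest increase of the 8 genes at 48h. Its RefSeq promoter held 2 STAT matches, where 0.457% of the 32851 promoters held 2 or more, and the stretch is shown because Cish is the classic STAT5 target among the members. It starts just before the RefSeq start of Cish, and capitals mark both matches, at chr9:107296659-107296667 and chr9:107296670-107296678.
Cish, chr9:107296657-107296681, plus strand: ttTTCCTGGAAagTTCTTGGAAatc

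The uninduced libraries held Cish at 0, 0.03 and 0 TPM and the 1h libraries at 0.06, 0.18 and 0.01 TPM. The 12h libraries held 1.08, 1.1 and 2.28 TPM and the 48h libraries 3.37, 4.16 and 6.11 TPM. The 0h and 1h libraries overlapped near 0, and the 12h and 48h libraries stood apart from them and from each other. The log2 fold change was 0.44 at 1h (SE 0.33, adjusted p = 0.465 in limma), 3.59 at 12h (SE 0.33, adjusted p = 1.61e-05) and 5.90 at 48h (SE 0.33, adjusted p = 1.09e-07). Because the uninduced level was near 0, the value at 48h was 2.89 with 1 added and 8.64 with 0.01 added, and it passed the test with either. Cish rose by 3.15 from 1h to 12h (adjusted p = 6.45e-05 in limma) and by 2.32 from 12h to 48h (adjusted p = 0.000505 in limma). With the 1h level near 0 too, the rise from 1h to 12h ranged from 1.09 to 4.66 over all alternatives.

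Counted together, 2 of the 8 genes were called at 1h, Socs2 higher and Il7r lower, where 10.3% of all genes tested were called (5.41% higher, 4.92% lower). On TPM as deposited, 5 were called, with Jak1, Stat5a and Stat5b also higher. At 12h, 4 were called (Socs2, Il2rg and Cish higher, Il7r lower), against 30.5% of all genes (16% higher, 14.5% lower). At 48h, 6 were called (Socs2, Il2rg, Cish and Jak1 higher, Il7r and Stat5b lower), against 46.5% of all genes (24.5% higher, 22% lower). With no replicate 3 library, 1, 3 and 4 members were called at 1h, 12h and 48h, since Socs2 was lost each time and Stat5b at 48h. Between consecutive times, 3 were called from 1h to 12h (Il7r lower, Il2rg and Cish higher), where 20% of all genes were (11.2% higher, 8.76% lower), and 5 from 12h to 48h (Il7r, Jak1, Il2rg and Cish higher, Stat5b lower), where 22.4% were (10.5% higher, 11.9% lower). The scaled TPM of the time points compared did not overlap for 3 of the 8 genes from 0h to 1h (32.5% of all genes tested), 5 from 0h to 12h (45%), 7 from 0h to 48h (51.1%), 5 from 1h to 12h (39.6%) and 6 from 12h to 48h (34.6%). Against 0h, the median log2 changes of the 8 genes were 0.04, 0.13 and 0.59 for 1h, 12h and 48h, beside 0.02, 0.07 and 0.07 for all genes tested.

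**Figure D2:**
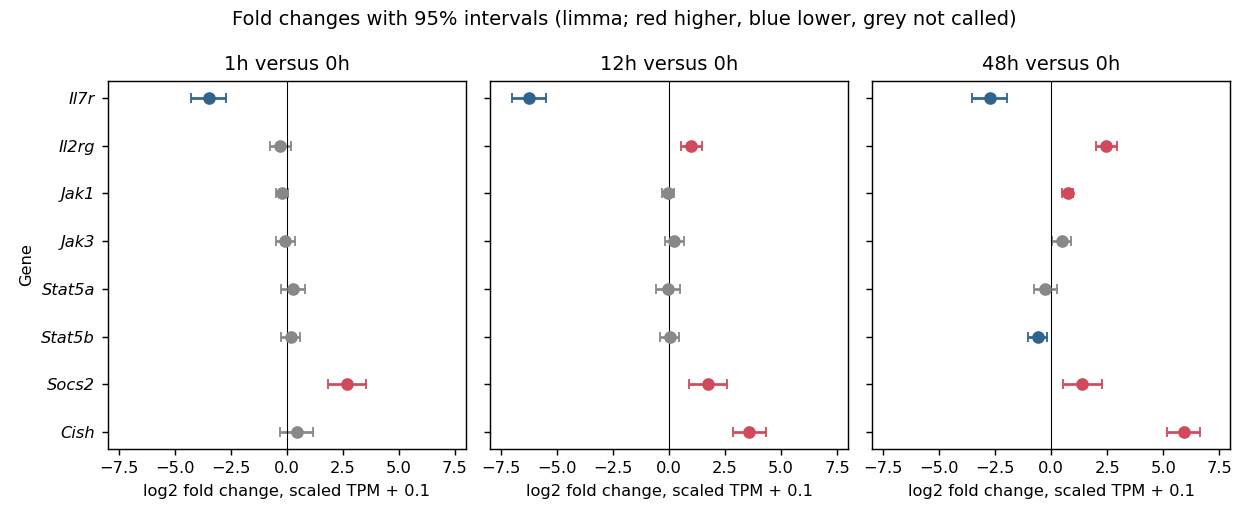
Log2 fold change of each gene against 0h (x axes; scaled TPM plus 0.1) at 1h, 12h and 48h, with points at the limma estimate over 3 libraries a time point and bars for its 95% interval. Il7r lies at -3.50, -6.27 and -2.76, Socs2 is highest at 1h with 2.69, and Cish reaches 5.90 at 48h.

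The order of the levels changed with these shifts. At 0h it was Jak1, Il7r, Il2rg, Stat5b, Jak3, Stat5a, Socs2 and Cish, where Jak3 and Stat5a, and Stat5a and Socs2, overlapped between libraries and all other neighbours did not. At 1h Socs2 stood second after Jak1, and Stat5b, Il2rg, Stat5a and Jak3 followed with each overlapping the next. At 12h Il2rg was second, and Socs2, Stat5b, Jak3, Stat5a and Cish followed, each overlapping the next. At 48h Il2rg (14.8 to 21.4 TPM) and Jak1 (16.43 to 17.17 TPM) led and overlapped, Cish came next, and Il7r was last at 0.67 to 0.93 TPM.

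Genes around these 8 were read from 7 lists of 54 genes in all, of which 45 passed the filter on low values. Of the cytokines that use the γ chain, and Tslp, which shares the α chain, 1 of 7 passed the filter. This was Il7 itself, the ligand of the receptor, which was listed at 0 to 0.01 TPM in uninduced libraries, 0.04 to 0.34 TPM after 1h, 0.20 to 0.32 TPM after 12h and 0.07 to 0.17 TPM after 48h. Il7 was called higher at 12h by 1.65 (adjusted p = 0.0105 in limma) and at 48h by 1.4 (adjusted p = 0.0157), the latter not as deposited (adjusted p = 0.0713), and its level was under 0.4 TPM in every library.

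Of the 5 tested receptor chains that pair with Il2rg or Il7r, 2 were lower at 1h, where 4.92% of all genes were. These were Il21r by -3.04 (adjusted p = 2.42e-05 in limma) and Il4ra by -2.08 (adjusted p = 0.000591), the partners of the γ chain for IL-21 and IL-4. In time order Il21r stood at 2.17 ± 0.22, 0.290 ± 0.017, 1.93 ± 0.33 and 0.853 ± 0.344 TPM (SD, n = 3 each). At 48h Il21r was lower (-0.94, adjusted p = 0.00712 in limma), and Il4ra (1.13, adjusted p = 0.0047) and Il15ra (1.33, adjusted p = 0.0117) were higher, calls that both of these lost as deposited. Crlf2, which joins the α chain in the receptor for TSLP, was higher at 12h (1.24, adjusted p = 0.0188 in limma) and stood at 0.64 at 48h (adjusted p = 0.158).

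Of 5 genes for the receptors of IL-3, GM-CSF and CSF-1, 1 was higher at 1h (5.41% of all genes), 4 at 12h (16% of all genes) and 5 at 48h (24.5% of all genes). The β chain gene Csf2rb, shared by the IL-3 and GM-CSF receptors, was higher within 1h by 3.15 (SE 0.24, adjusted p = 2.27e-05 in limma), from 2.31 ± 0.64 TPM (SD, n = 3) to 32.9 ± 1.1, and by 4.62 at 48h (adjusted p = 6.5e-08). At 48h Csf1r, the CSF-1 receptor and a macrophage marker used above, was higher by 6.13 (adjusted p = 2.8e-07 in limma), Csf2rb2 by 4.28 (adjusted p = 5.8e-07) and Csf2ra by 2.75 (adjusted p = 4.05e-05). The fifth, Il3ra, was higher by 1.33 (adjusted p = 0.00652 in limma), but not as deposited. Csf2rb and Csf2rb2 are close paralogs, so their split is uncertain.

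All 6 other JAK and STAT genes analysed here were higher at 12h and at 48h, where 16% and 24.5% of all genes were. Stat3, the STAT of the IL-6 family, was the only one called at 1h, from 4.37 ± 0.37 TPM (SD, n = 3) to 29.9 ± 3.5, a change of 2.09 (adjusted p = 1.76e-05 in limma). Jak2, the kinase of the IL-3 receptor, stood at 1.02 ± 0.11 TPM in uninduced cells and at 2.54 ± 0.63, 3.45 ± 0.12 and 3.23 ± 0.53 TPM (SD, n = 3 each) in the induced cells in time order, and was called higher at 12h by 1.36 (adjusted p = 0.000583 in limma) and at 48h by 1.98 (adjusted p = 1.45e-05). As deposited Jak2 was called at 1h too (1.22, adjusted p = 0.00261). Stat2, which acts in interferon signalling, was higher at 48h by 4.57 (adjusted p = 7.34e-09 in limma) and reached 54.0 ± 10.1 TPM (SD, n = 3). Stat4 was higher by 1.98 (adjusted p = 0.000211 in limma). As deposited, Tyk2 lost its call at 48h and the other 5 kept it.

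Of 12 other inhibitors of the pathway, 5 were higher at 48h (24.5% of all genes) and none lower. At 1h Socs3 was the only one called higher with the scaling, whereas 7 were on TPM as deposited (Socs1, Socs3, Socs4, Socs7, Pias1, Pias3 and Ptpn2). Socs3 was higher by 3.46 at 1h (adjusted p = 7.22e-05 in limma) and 5.04 at 48h (adjusted p = 2.96e-07), with 0.04 to 0.12 TPM in uninduced libraries and 2.89 to 5.37 TPM in those of 48h. Socs1 (2.69, adjusted p = 0.000457 in limma), Pias1 (1.39, adjusted p = 0.00027), Socs5 (1.27, adjusted p = 0.0172) and Pias3 (1.09, adjusted p = 0.0112) were the others, and Socs5 and Pias3 were not called as deposited. The phosphatase gene Ptpn6 was lower at 1h (-1.86, adjusted p = 9.28e-05 in limma), the only inhibitor lower at that time, and stood at 0.38 at 48h (adjusted p = 0.111).

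Of 8 genes tested that are known as STAT5 targets, 5 were lower at 1h (Bcl6, Bcl2l1, Myc, Pim1 and Ccnd3, by -2.0 to -0.69) and none higher, against 4.92% of all genes lower, but on TPM as deposited Bcl6 and Bcl2l1 alone stayed called and 2 others were called higher. At 48h, 3 were higher and 2 lower, beside 24.5% and 22% of all genes. The list does not separate targets that STAT5 raises from targets that it lowers, so these counts are no reading of STAT5 activity. Pim1, a survival kinase, was higher by 2.04 (adjusted p = 1.07e-06 in limma) and Mcl1, an inhibitor of cell death, by 1.94 (adjusted p = 4.34e-07). The cyclin gene Ccnd3 was lower by -1.56 (adjusted p = 8.69e-06 in limma), from 116 ± 6.0 TPM (SD, n = 3) to 30.2 ± 8.5, and Myc by -1.38 (adjusted p = 1.16e-05).

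Of 8 factors known to act on Il7r, 4 were lower at 48h and 2 higher, where 22% and 24.5% of all genes were. Lower were the B cell factors Tcf3 (-2.88, adjusted p = 4.02e-07 in limma), Ebf1 (-2.39, adjusted p = 4.46e-07) and Pax5 (-1.79, adjusted p = 1.51e-06), and Foxo1 (-1.26, adjusted p = 0.000158), an activator of Il7r. Spi1, which encodes PU.1, was higher by 2.26 (adjusted p = 3.29e-07 in limma) and Runx1 by 1.61 (adjusted p = 1.26e-05). Gabpa (-0.27, adjusted p = 0.516 in limma) and Gfi1 (-0.56, adjusted p = 0.167) did not pass. Foxo1 stood at 3.28 ± 0.76 TPM before induction and 0.723 ± 0.134, 0.727 ± 0.067 and 0.980 ± 0.140 TPM (SD, n = 3 each) in the 1h, 12h and 48h cells. Gfi1, a repressor of Il7r, stood at 0.517 ± 0.228 TPM before induction and 4.96 ± 1.5, 2.37 ± 1.11 and 0.230 ± 0.040 TPM after it in the same order. It was called higher at 1h by 2.43 (adjusted p = 0.000569 in limma) and at 12h by 1.67 (adjusted p = 0.00198), and lower from 12h to 48h by -2.23 (adjusted p = 0.000384). From 12h to 48h Tcf3 was lower as well (-0.76, adjusted p = 0.0154 in limma), and Foxo1 (1.06, adjusted p = 0.00147), Pax5 (0.99, adjusted p = 0.000478) and Runx1 (0.62, adjusted p = 0.0214) were higher. These 3 were not called on TPM as deposited, where Runx1 changed sign (-0.13). Ebf1 and Pax5 are also in the Pre-B marker sum above.

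**Figure D3:**
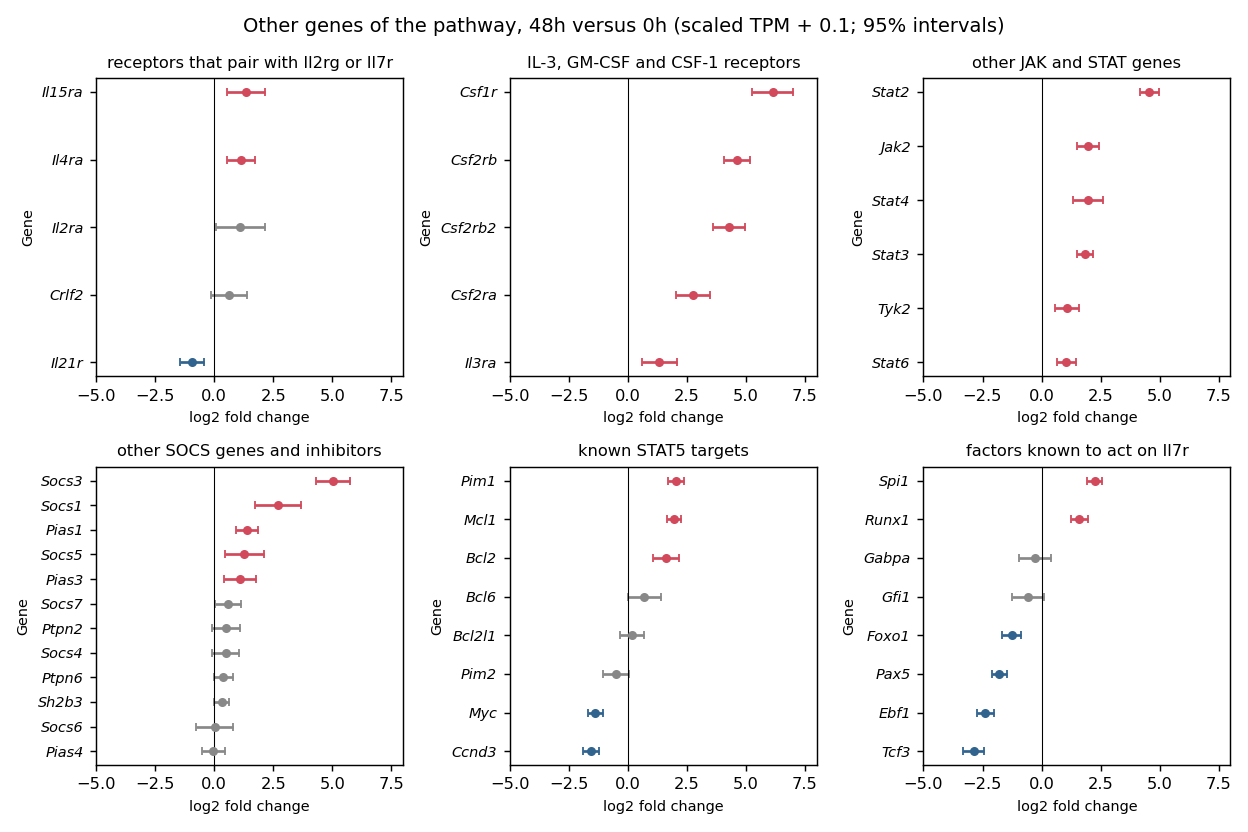
Log2 fold change at 48h against 0h (x axes; scaled TPM plus 0.1) of the tested genes of 6 lists, 3 libraries a time point, with bars for the 95% interval; red marks genes called higher, blue lower and grey not called. All 6 other JAK and STAT genes and all 5 receptors for IL-3, GM-CSF and CSF-1 lie above 0, while the STAT5 targets and the factors that act on Il7r lie on both sides.

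As a description over the 12 libraries, which fall into 4 time points, the genes of at least 1 TPM whose log2 scaled level followed that of Il7r most closely were Exoc4 (Pearson r = 0.971), Slamf6 (0.964) and Fosb (0.962), of 9323 searched. Fosb had means of 10.7, 0.917, 0.163 and 1.53 TPM in time order, and Slamf6 of 4.83, 2.50, 0.917 and 1.44 TPM. Those of Exoc4 were 5.98, 7.18, 4.29 and 3.74 TPM. As deposited, Exoc4 was thus highest at 1h and lowest at 48h, unlike Il7r. For Cish they were Fcgr1 (0.992), Susd6 (0.99) and Klf6 (0.989), of which Fcgr1 is a macrophage marker. For Socs2 they were the pseudogene Gm12346 (0.971), Cry2 (0.943) and Ptgir (0.924), all highest at 1h.

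PCHi-C lists the HindIII fragments that were in contact with a captured promoter fragment more often than expected from their distance. The Il7r start lies in 1 captured fragment, chr15:9528618-9533170. Its ends are shown with the site between the most persistent pair of partners, because these cut sites set the resolution of each contact. Capitals mark the HindIII site AAGCTT.
Left end of the Il7r fragment, chr15:9528605-9528634, plus strand: tgtatttgatacAAGCTTatgcaatgtagc
Right end of the Il7r fragment, chr15:9533158-9533187, plus strand: atcttgctttgaAAGCTTcatcagaaaaac
Site between both persistent partners, chr15:9748217-9748246, plus strand: aaaggataaaggAAGCTTaaagttcctaaa

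All 35 fragments of the Il7r contacts, the captured fragment included, began and ended at such a site in GRCm38. The 0h list gives a CHiCAGO score of at least 5 for each contact. The lists of 1h, 12h and 48h give whole numbers whose unit is not named and which were taken as read pairs, so values are not compared between 0h and later times. Numbers of contacts are compared across this change of format. The study states a score cutoff of 5, but lists without scores cannot show that it was applied. In time order the lists held 138769, 137836, 131598 and 144072 contacts. Each time point is 1 merged list, so no difference between lists below has a replicate check.

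The Il7r fragment had 29 contacts in the 0h list, 9 in the 1h list, 6 in the 12h list and 13 in the 48h list. Both the number of contacts and the TPM of Il7r were highest at 0h and lowest at 12h, with the 1h and 48h values between. With a stricter value for each list, as given in the closing section, the 48h list and not the 0h list had the most contacts. How often other fragments and their genes share an order was not counted, so no link to expression is drawn. The order of the latter pair depended on the scale. As deposited the mean of Il7r was higher at 1h (1.053 TPM) than at 48h (0.780 TPM), opposite to the contacts, and after scaling it was lower at 1h (0.714) than at 48h (1.15), as the contacts were. At 0h, 91.2% of the 15157 captured fragments with a contact in that list had fewer contacts than Il7r. In the 1h, 12h and 48h lists it was 61.9% of 15545, 49.5% of 15909 and 73.1% of 15754. The numbers of contacts in these lists divided by that of 0h were 0.310, 0.207 and 0.448. Among the 2498 fragments with at least 20 contacts at 0h, a limit set after the number for Il7r was known, the median ratio was 0.912, 0.808 and 0.831. A ratio as low as that of Il7r or lower was found in 1.36%, 0.881% and 12.6% of these in the 1h, 12h and 48h lists.

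**Figure D4:**
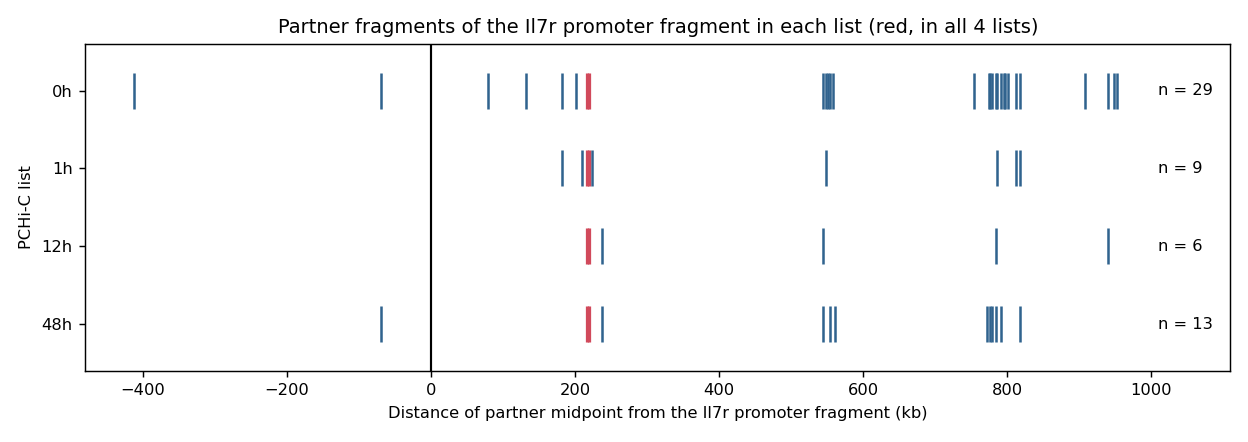
Partner fragments of the Il7r promoter fragment (ticks) by their distance in kb (x axis; 0 is the midpoint of the Il7r fragment) in the merged PCHi-C lists of 0h, 1h, 12h and 48h (rows), with the number of contacts at the right. The pair of partners in all 4 lists, in red, lies near 217 and 219 kb, and the farthest block thins from 16 contacts at 0h to 2 at 12h.

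The contacts fell into 5 blocks when split at gaps over 100 kb. On the side of the Il7r gene body there was a partner at -412 kb in Skp2, listed at 0h only, and a partner at -70.1 kb over an exon of Capsl (chr15:9458914-9462628), listed at 0h with a score of 6.14 and at 48h with a value of 57. That value was the highest of any Il7r contact at 48h, where the upper quartile of the whole list was 26. This partner was also the nearest of all Il7r partners, and the quartile covers contacts of all distances, so the value is not matched for distance. Upstream of Il7r, the block from 79.4 to 238 kb, in and next to Spef2, a gene of sperm flagella, held 6, 5, 3 and 3 contacts in time order. The block from 544 to 561 kb, with no protein-coding gene in its partners, held 5, 1, 1 and 3. The block from 754 to 952 kb, over Prlr, the prolactin receptor gene, and on to Dnajc21 and Brix1, held 16, 3, 2 and 6.

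The contacts with the Spef2 promoter region were the only ones in all 4 lists. The partner chr15:9747347-9748229, intronic in Spef2, had a score of 15.67 at 0h and values of 28, 18 and 31 in the 1h, 12h and 48h lists. Its neighbour chr15:9748230-9751918, the captured fragment that holds the Spef2 start, had a score of 13.34 and values of 28, 19 and 27. These were the only 2 of the 29 contacts at 0h with a score of at least 10. The other 27 scored between 5.08 and 9.69.

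Of the 29 contacts at 0h, the 1h list also held 7 (24.1%, 95% Wilson interval 12.2 to 42.1), the 12h list 5 (17.2%, interval 7.6 to 34.5) and the 48h list 10 (34.5%, interval 19.9 to 52.6). These intervals cover counting error only. Over all 138769 contacts at 0h the shares were 57.6%, 53.2% and 55.9%. When a partner within 10 kb was accepted, the shares for Il7r were 65.5%, 51.7% and 65.5%. Contacts beyond 500 kb numbered 21, 4, 3 and 9 in time order, and the median distance was 775, 224, 391 and 561 kb, beside 190, 185, 169 and 177 kb for all contacts of each list.

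Of the 34 partner fragments in any list, 15 overlapped an exon of a protein-coding gene, 10 were intronic and 9 lay outside protein-coding genes. Transcript starts of 4 protein-coding genes lay in partners. For Prlr this was a start inside the gene, since no partner held its outermost start at chr15:10177238. Dnajc21, a co-chaperone gene whose captured fragment was listed as a partner at 0h and 12h, held 5.85, 4.69 and 4.14 TPM at 0h, 6.36, 5.66 and 5.13 TPM at 1h, 3.76, 2.29 and 3.45 TPM at 12h, and 0.69, 0.8 and 0.43 TPM at 48h. Prlr and Spef2 were at or under 0.33 TPM in every library, and Gm21973 was listed at 0 in every library.

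The other 7 members each had 1 captured promoter fragment as well. That of Jak1 had 40, 45, 48 and 48 contacts at 0h, 1h, 12h and 48h, that of Socs2 19, 14, 13 and 17, and that of Jak3 16, 17, 13 and 7. That of Stat5a had 5, 15, 7 and 2 contacts, and that of Stat5b 1, 0, 1 and 0, with no partner in common with Stat5a in any list. Those of Il2rg and Cish, the genes with the largest increases at 48h, had 2, 7, 7 and 6 and 5, 9, 8 and 10 contacts, the fewest at 0h in both. Jak1 and Socs2, also called higher at 48h, had their fewest and their most contacts at 0h, respectively. The share of all captured fragments with their fewest contacts at 0h was not counted, so no link to expression is drawn. The fragments of Il2rg, Jak3, Socs2 and Cish also hold the starts of other genes, so their contacts cannot be given to the member alone.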

How the data were processed

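The 8 genes, the lists and the tests were chosen with earlier results of these data known. Per the labels and the study's methods, reads were trimmed with Trim Galore 0.6.2 and mapped to mm10 with HISAT2 2.1.0, and the authors deposited TPM per gene, estimated with RSEM. TPM were divided by median-of-ratios size factors. The log2 of scaled TPM + 0.1 of genes whose mean TPM reached 0.1 went into limma 3.58.1 (R 4.3.3; mean-variance trend, 1 model of 12 libraries), and a Benjamini-Hochberg adjusted p under 0.05 was called. The labels and the study call the replicates biological. The labels do not say whether they were separate cultures, so p-values measure the spread between these libraries. Depth is not given by TPM, so low values have no counting interval. Simulated data with known changes were used to check the model.

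For PCHi-C the authors merged 2 replicates and called contacts with CHiCAGO. They deposited scores at 0h and at later times whole numbers, read here as counts (of read pairs). Identical pairs were counted once. Hi-C files were not used here. Genes named are the 8 members, up to 4 genes with the largest change at 48h in each list (mean TPM of at least 1), the 3 genes most correlated with Il7r, Cish and Socs2, genes with a transcript start in Il7r partners, markers, and others named for their role or as members of a count of 5 or fewer, chosen after their values were seen. Annotation was GENCODE (GRCm38) and promoter sequences were RefSeq (GRCm38.p6). Alternatives varied the scaling, pseudocount, filter, trend, libraries, replicate block, fold threshold and matching of contacts. Python 3.11.15, pandas 2.3.3, scipy 1.17.1 and matplotlib 3.10.9 were used. The values of 2 genes are not reported here, and they were left out of the lists and sums.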

Additional observations from a re-analysis of the deposited data

How the results depend on the processing

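Of 640 log2 fold changes of members recomputed under alternatives, 594 kept their sign and their side of the threshold, 18 lost a call, 8 gained one and 20 changed sign. Il7r, Il2rg and Cish changed no call among these recomputed values, which do not include the fold threshold. With a log2 change over 1 required as well, Il2rg at 12h (0.98) would lose its call. All sign changes were of values that did not pass the test with the main settings, and after the change only Jak1 at 1h as deposited passed it. On TPM as deposited, where the median of all genes shifts as given above, Il2rg (0.36), Jak1 (0.44) and Jak3 (0.55) changed sign at 1h, Jak1 (0.29) and Stat5a (0.28) at 12h, Jak1 (-0.14) and Jak3 (-0.0027) from 1h to 12h, and Jak3 (-0.49) from 12h to 48h. Rescaled without the 20 most abundant genes, Jak3 (0.0787) at 1h, and Jak1 (0.0798) and Stat5a (0.0681) at 12h changed sign, and Jak1 lost its call from 12h to 48h (adjusted p = 0.0502 in limma). With 1 library left out at a time, values that changed sign ranged from -0.152 to 0.0357 for Jak3 at 1h, from -0.0822 to 0.0348 for Jak1, -0.14 to 0.109 for Stat5a and -0.0763 to 0.135 for Stat5b at 12h, and from -0.365 to 0.0022 for Stat5a from 12h to 48h. The sum of Stat5a and Stat5b at 12h was 0.33 as deposited, 0.11 without the 20 most abundant genes and -0.0828 to 0.0809 with single libraries left out, the highest without 12h replicate 1. The cause was not tested. With only the libraries of replicates 1 and 2, added after seeing the data, Jak1 at 12h changed sign (0.0795), Socs2 and Stat5b lost their calls, and 1 member was called at 1h. The number of members called at 1h was 5 as deposited. With a fold change over 2 required as well, 3 members and 8 other pathway genes were called from 12h to 48h, where 5 and 14 were called without it. With 1 library left out at a time, the latter count ranged from 9, without 48h replicate 1, to 17.

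For the Il7r contacts, a stricter value (a score of at least 10 at 0h, the upper quartile of each list later) left 2, 2, 0 and 3 contacts at 0h, 1h, 12h and 48h. Shares of 0h contacts also listed later were 65.5%, 51.7% and 65.5% with partners within 10 kb, and 100% at each time for the 2 contacts with a score of at least 10. Il7r has 1 captured fragment, so using only the one at its outermost start changed nothing.

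Same-numbered libraries resembled each other weakly. Their deviations from the time point means correlated at -0.011 to 0.255 in 18 pairs, 7 of them above 0.1. In 36 pairs of different numbers the values were -0.182 to 0.104, 1 of them above 0.1. By number, the same-numbered values were 0.014 to 0.107 for replicate 1, -0.011 to 0.055 for replicate 2 and 0.081 to 0.255 for replicate 3. The replicate 3 libraries did deviate together, as given above. With the replicate block, 2, 4, 6, 3 and 5 members were called in the 5 comparisons, as without it, and no member changed its call.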
